A study of Saccharomyces cerevisiae with 20 samples.

Results

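The genes described here were 4 members of the hexose transporter family of budding yeast, HXT13 (YEL069C), HXT15 (YDL245C), HXT16 (YJR158W) and HXT17 (YNR072W), and the 4 dehydrogenase genes that lie beside them, DSF1 (YEL070W), MAN2 (YNR073C), SOR1 (YJR159W) and SOR2 (YDL246C). They were taken by name from the gene column of the 8 deposited RNA-Seq tables, and made up 8 of the 6921 genes that appeared in any table. They were chosen by their function and position and by their expression values, which were already known from these tables, so its differences from wild type are given as a description of these genes. No p-value and no call of the difference between Δtup1 and wild type is given for them, and the adjusted p-values of other comparisons, which come from fits across all genes, carry the same limit.

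The strains were W303 RAD5+ yeast, grown in YPD, a rich medium with glucose. Per the study's methods each deletion strain had the open reading frame of 1 gene replaced by an antibiotic resistance marker, so that wild type and deletion strains share the W303 background and differ in the gene and the marker. The groups were wild type, Δtup1, Δsds3, Δxbp1 and Δisw2, each harvested at diauxic shift, 2 hours after glucose could no longer be detected, and in stationary phase, when cultures were 3 days old. Each of the 10 groups had 2 libraries, called A and B here after the endings of the column headings, 20 libraries in all. Which column is which numbered replicate is not given in the sources used here, and at stationary phase the B column of each deletion is headed by another strain number than its A column. The study calls them biological replicates, and p-values measure the spread between 2 libraries per group.

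Sorbitol and mannitol are hexitols, the sugar alcohols that correspond to hexose sugars. Yeast that can grow on them takes them up through the products of HXT13, HXT15, HXT16 and HXT17 and oxidises them in the cytosol to fructose. DSF1 and MAN2 encode mannitol dehydrogenases and SOR1 and SOR2 encode sorbitol dehydrogenases, and fructose then enters glycolysis through hexokinase. Tup1 is a corepressor that acts in a complex with Cyc8 and is brought to DNA by repressors such as Mig1, Nrg1 and Rgt1. Sds3 is a subunit of the large Rpd3 histone deacetylase complex, Xbp1 is a DNA-binding repressor that is made under stress and starvation, and Isw2 is the ATPase of a nucleosome remodeler.

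The 8 genes form 4 pairs, each with 1 transporter and 1 dehydrogenase, and all lie near the end of a chromosome. In the R64 reference genome (sacCer3, strain S288C) DSF1 and HXT13 are on chromosome V at 19589 to 21097 (+ strand) and 21537 to 23231 (- strand). HXT17 and MAN2 are on chromosome XIV at 772657 to 774351 (+) and 774792 to 776300 (-). These pairs face each other with their 3′ ends, 439 and 440 bases apart. SOR2 and HXT15 are on chromosome IV at 8683 to 9756 (-) and 11657 to 13360 (-), and HXT16 and SOR1 are on chromosome X at 732440 to 734143 (+) and 736044 to 737117 (+). In both of these pairs the dehydrogenase follows the transporter on the same strand after 1900 bases. Each coding sequence is a single exon, and the distance to the end of its chromosome ranged from 8.03 kb for MAN2 to 21.5 kb for HXT13. The transporters have 564 or 567 codons, DSF1 and MAN2 have 502 and SOR1 and SOR2 have 357.

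**Figure D1:**
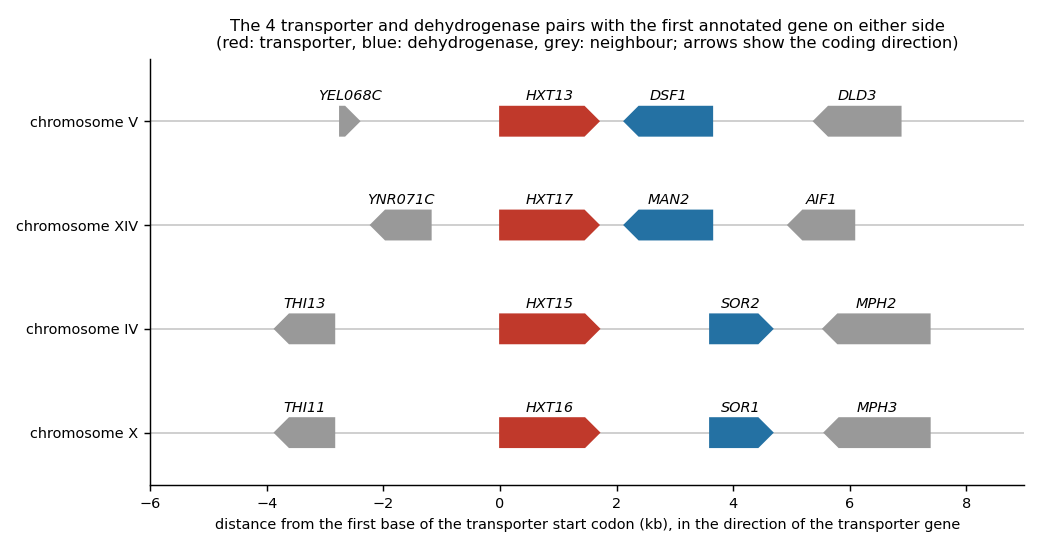
Map of the 4 pairs, to scale, with the distance from the first base of the transporter start codon in kb on the x axis and 1 row per chromosome. Arrows show the coding direction of the transporter (red), the dehydrogenase (blue) and the first annotated gene on either side (grey). The 439 and 440 bases between the convergent pairs and the 1900 bases between the other pairs can be read from the gaps.

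The pairs are copies of each other, which decides how far reads can be told apart. The libraries were sequenced with 37 cycles in paired-end mode, so the share of 37-base stretches of a coding sequence that also occur elsewhere in the genome was computed. HXT15 and HXT16 were 99.88% identical over 1704 bases, and 95.8% and 95.6% of their stretches occurred elsewhere. SOR1 and SOR2 were 99.91% identical over 1074 bases, with 96.4% of stretches shared. DSF1 and MAN2 were 98.94% identical, with 16 mismatches in 1509 bases and 66.2% of stretches shared. HXT13 and HXT17 were the most distinct at 96.18% identity, with 39.3% of stretches in common. How reads with several equally good positions were assigned, and whether counting used the strand, is not given in the sources used here. Whether W303 carries every copy of the reference strain was not tested.

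The bases that tell the most alike copies apart are few. They are printed here in 41-base windows of the coding strand, with the differing base in capitals and positions counted from 1 at the first base of the start codon. HXT15 and HXT16 differed by A826G and T1559C, with the HXT15 base first. SOR1 and SOR2 differed by G324C, with the SOR1 base first. The HXT15 windows lie at chrIV:12515-12555 and chrIV:11782-11822 (- strand), the HXT16 windows at chrX:733245-733285 and chrX:733978-734018 (+ strand), the SOR1 window at chrX:736347-736387 (+ strand) and the SOR2 window at chrIV:9413-9453 (- strand).
HXT15, A826G: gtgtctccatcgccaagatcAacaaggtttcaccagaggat
HXT16, A826G: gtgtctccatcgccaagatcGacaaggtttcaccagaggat
HXT15, T1559C: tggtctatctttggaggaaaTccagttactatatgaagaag
HXT16, T1559C: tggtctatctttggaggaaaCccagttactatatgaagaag
SOR1, G324C: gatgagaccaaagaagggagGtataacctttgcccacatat
SOR2, G324C: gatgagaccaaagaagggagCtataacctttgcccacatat

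The promoter windows, from 250 bases before to 50 bases from the start codon, fell into fewer kinds than there are genes. The windows of HXT15 and HXT16 were identical, as were those of SOR1 and SOR2, and those of DSF1 and MAN2 were 90.1% identical. The windows of HXT13 and HXT17, whose coding sequences are 96.18% identical, were only 57.4% identical, which is close to the 57.6% between HXT13 and HXT15. Short motifs of repressors were searched on both strands of these windows and of 6001 windows of the same length in the genome. The Nrg1 motif (CCCTC or CCCCT) was in 3 of the 8, HXT13, HXT17 and DSF1, and in 36.1% of all windows. The Rgt1 motif (CGGANNA) was in 4, HXT15, HXT16, SOR1 and SOR2, and in 26.4% of all. The Mig1 motif (CCCCGC or CCCCAC) and the Xbp1 motif (CTCGAG) were in 0 of the 8 windows and in 6.8% and 5.33% of all. A match says only that these letters occur in the window. The 4 windows below are those of the more read gene of each pair of copies, from the R64 reference of RefSeq. The HXT17 window, which differs from that of HXT13, is not printed. With the match in capitals, the windows are HXT13 at chrV:23182-23481 (- strand), DSF1 at chrV:19339-19638 (+ strand), HXT15 at chrIV:13311-13610 (- strand) and SOR1 at chrX:735794-736093 (+ strand). In DSF1, HXT15 and SOR1 the motif reads on the opposite strand.
HXT13: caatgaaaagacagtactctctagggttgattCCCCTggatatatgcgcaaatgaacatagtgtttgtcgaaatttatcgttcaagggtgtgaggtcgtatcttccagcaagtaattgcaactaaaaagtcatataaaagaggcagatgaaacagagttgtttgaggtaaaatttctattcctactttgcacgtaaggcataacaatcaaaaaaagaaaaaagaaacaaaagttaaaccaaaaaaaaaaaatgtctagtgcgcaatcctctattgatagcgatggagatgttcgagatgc
DSF1: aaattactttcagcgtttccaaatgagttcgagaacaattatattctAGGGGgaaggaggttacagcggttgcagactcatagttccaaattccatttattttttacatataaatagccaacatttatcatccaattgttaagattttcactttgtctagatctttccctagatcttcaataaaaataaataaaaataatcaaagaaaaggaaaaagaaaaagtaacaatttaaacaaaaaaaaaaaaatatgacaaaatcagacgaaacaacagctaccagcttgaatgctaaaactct
HXT15: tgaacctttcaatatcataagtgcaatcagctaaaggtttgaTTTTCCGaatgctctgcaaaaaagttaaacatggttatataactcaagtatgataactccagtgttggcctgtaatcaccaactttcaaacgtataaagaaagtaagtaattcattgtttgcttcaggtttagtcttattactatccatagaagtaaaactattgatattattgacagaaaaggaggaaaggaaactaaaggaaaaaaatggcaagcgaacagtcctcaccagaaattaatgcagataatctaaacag
SOR1: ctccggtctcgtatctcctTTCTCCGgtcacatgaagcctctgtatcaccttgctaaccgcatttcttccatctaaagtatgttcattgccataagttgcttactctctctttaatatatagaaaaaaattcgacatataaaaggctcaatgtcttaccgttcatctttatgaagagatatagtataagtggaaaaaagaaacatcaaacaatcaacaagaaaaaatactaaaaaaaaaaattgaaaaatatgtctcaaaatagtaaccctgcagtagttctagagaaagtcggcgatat

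Reads on genes ranged from 20963633 to 32558227 per library at diauxic shift. At stationary phase they ranged from 9994448 to 28421881 in the A libraries and from 2543155 to 4424289 in the B libraries, so a gene with few reads was measured mainly in library A there. Each deleted gene was lower in its own strain, with the highest normalized count among the 16 deletion libraries at 10.7 for ISW2. The Δsds3 libraries at diauxic shift stood apart from each other, with 37.1% of genes at least 2-fold apart, against 4.16% to 6.72% in the other groups of that phase and 1.51% to 5% at stationary phase. Values below are normalized counts, reads divided by the size factor of the library, and the scale of each table is its own. With 2 libraries against 2 an exact permutation test cannot give a p-value under 0.333, so calls rest on limma fits over all genes tested, where a call needs an adjusted p of less than 0.05 together with a 1.5-fold or larger change. A log2 fold change is on the scale of log2(normalized count + 1), which understates the change of genes with few reads.

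In Δtup1 at diauxic shift all 8 genes were higher than in wild type. HXT13, the transporter with the most reads, had normalized counts of 82.7 and 98.4 in the wild type libraries and 69744 and 62903 in Δtup1. The groups lay far apart, and the ratio of the means was 732, with a log2 fold change of 9.50 (SE 0.30). DSF1, the mannitol dehydrogenase beside it, already had 1871 and 1548 in wild type and reached 108903 and 89877 in Δtup1. Its log2 fold change was 5.86 (SE 0.33), a ratio of means of 58.1, and again the groups did not overlap. Per kb of coding sequence and 1000000 reads on genes, DSF1 stood at 2079 and 1785 in the Δtup1 libraries, at rank 94 and 109 of 5927 genes, and HXT13 at 1185 and 1112, at rank 167 and 174. In wild type the same measure put DSF1 at rank 2860 and 3108 and HXT13 at rank 5626 and 5650.

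HXT15 had normalized counts of 5.62 and 12.5 in wild type and 1650 and 2394 in Δtup1, a log2 fold change of 7.71 (SE 0.41). SOR1, the sorbitol dehydrogenase, had 3.21 and 12.5 in wild type and 525 and 432 in Δtup1, a log2 fold change of 5.98 (SE 0.51). For both genes the wild type libraries were apart by more than 2-fold but far below the lower Δtup1 library. MAN2, the second mannitol dehydrogenase, had 5.62 and 6.75 in wild type and 322 and 559 in Δtup1, a log2 fold change of 5.89 (SE 0.46).

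HXT17, HXT16 and SOR2 were barely read in wild type. HXT17 went from 0 and 1 reads in the wild type libraries to 78 and 91 in Δtup1, a ratio of depth-scaled reads of 216 with a counting interval of 38.3 to 8592. SOR2 went from 2 and 1 reads in wild type to 57 and 70 in Δtup1, a ratio of 54.2 with an interval of 18.1 to 266. HXT16 had 0 reads in both wild type libraries and 16 and 24 in Δtup1, and was at least 8.4-fold higher when wild type is set at 3 reads per library. The intervals are at the 95% level and cover counting error only. Of the 6295 genes tested in this comparison 13.8% were called higher. Only HXT13 and DSF1 met the filter on low counts in wild type, and the other 6 genes met it through their reads in Δtup1, so nothing is read from a count of calls among the 8.

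At stationary phase all 8 genes again had both Δtup1 libraries above both wild type libraries. HXT13 had 112 and 79.3 in wild type and 22117 and 16739 in Δtup1, a log2 fold change of 7.66 (SE 0.24) and a ratio of means of 203. DSF1 had 491 and 490 in wild type and 28408 and 19712 in Δtup1, a log2 fold change of 5.59 (SE 0.23). These 2 genes were again the highest of the set, and their wild type libraries were close to each other. HXT15 had 11.2 and 15.9 in wild type and 919 and 1007 in Δtup1, a log2 fold change of 6.07 (SE 0.28). MAN2 had 0.907 and 5.95, each from 3 reads, and then 83.9 and 182, a log2 fold change of 5.10 (SE 0.64). SOR1 had 4.23 and 7.93 in wild type and 121 and 49.1 in Δtup1, a log2 fold change of 3.51 (SE 0.53), and its Δtup1 libraries were more than 2-fold apart.

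The remaining genes rested on few reads at stationary phase. HXT17 went from 1 and 0 reads in wild type to 44 and 11 in Δtup1, a ratio of 111 with a counting interval of 19 to 4446. SOR2 went from 1 and 0 reads to 17 and 3, a ratio of 40.2 with an interval of 6.43 to 1666. With 10 and 3 reads in the Δtup1 libraries against 0 in both wild type libraries, HXT16 was at least 2.05-fold higher. HXT16 and SOR2 did not pass the filter on low counts, and HXT17, MAN2 and SOR1 passed it only through Δtup1. Of the 6035 genes tested 25.7% were called higher, and nothing is read from the members against it. Both Δtup1 libraries lay above both wild type libraries for 38.3% of all genes tested at this phase and for 30.8% at diauxic shift.

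**Figure D2:**
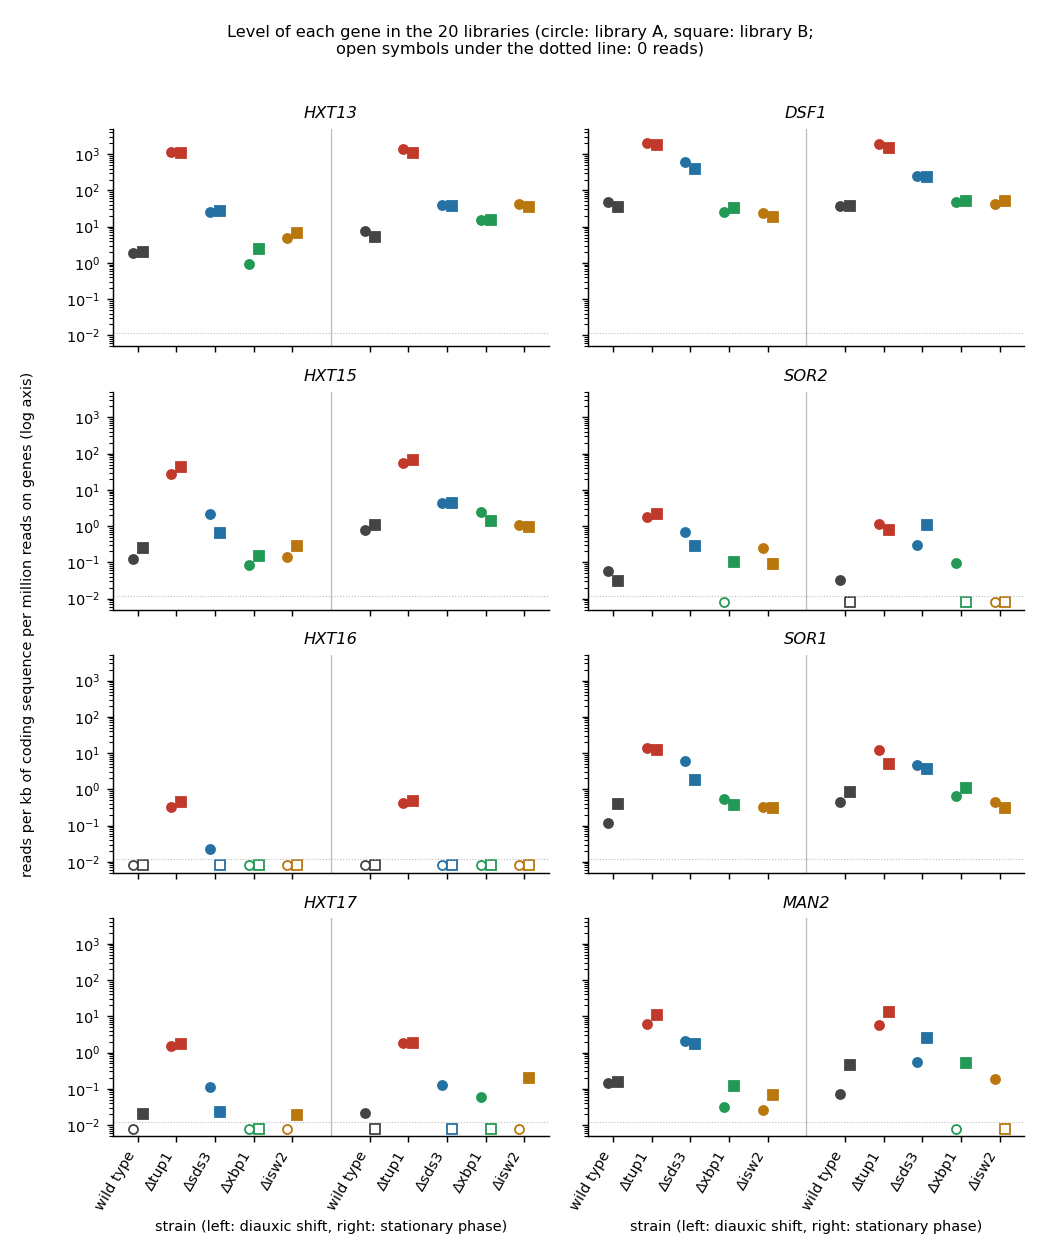
Level of each of the 8 genes in the 20 libraries, in reads per kb of coding sequence per 1000000 reads on genes on a log axis, with circles for library A and squares for library B. Each row of panels holds a transporter and the dehydrogenase beside it, and open symbols mark 0 reads. Within each phase the Δtup1 libraries (red) are the highest in every panel except SOR2 at stationary phase. There a Δsds3 library at 1.06 lies between the Δtup1 libraries at 1.11 and 0.765.

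The order of the levels, per kb and 1000000 reads, was led by the same genes in wild type and in Δtup1. These levels divide the reads counted by the full coding length. Of the 37-base stretches, 910 of 1659 occur only once in the genome for HXT13, 70 of 1668 for HXT15 and 37 of 1038 for SOR1. The order is therefore one of reads counted, and whether it is one of expression was not tested. In Δtup1 at diauxic shift DSF1 stood at 1932 ± 208 and HXT13 at 1148 ± 51.6 (SD, n = 2), followed by HXT15 at 35 ± 10. SOR1 at 13.1 ± 1.41 and MAN2 at 8.62 ± 3.5 came next, then SOR2 at 1.95 ± 0.219, HXT17 at 1.64 ± 0.127 and HXT16 at 0.386 ± 0.0969. No neighbours in this order had overlapping libraries. At stationary phase the order in Δtup1 was DSF1, HXT13, HXT15, MAN2, SOR1, HXT17, SOR2 and HXT16, and here MAN2 (5.81 and 13.4) and SOR1 (11.8 and 5.1) overlapped. In wild type DSF1 stood at 41.5 ± 8.34 at diauxic shift and HXT13 at 1.95 ± 0.106, and SOR1, HXT15 and MAN2 lay between 0.114 and 0.406 with libraries that overlapped. HXT13 was read more at stationary phase in wild type, at 7.68 and 5.33 against 1.87 and 2.02 at diauxic shift, while DSF1 was at 37.9 and 37 against 47.4 and 35.6. The phases were normalized separately, and this difference was not tested.

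In Δtup1 the reads of each pair of copies were split unevenly, and only DSF1 and MAN2 had enough reads in wild type to set the split beside it. In Δtup1 HXT17 took 0.131% (95% Wilson interval 0.105 to 0.163) and 0.155% (0.127 to 0.191) of the reads on HXT13 and HXT17 at diauxic shift, and 0.133% (0.0994 to 0.179) and 0.161% (0.09 to 0.288) at stationary phase. In wild type HXT17 had 1 read or none in each library, with upper bounds of the Wilson interval from 1.51% to 8.76%. MAN2 took 0.295% (0.262 to 0.332) and 0.618% (0.568 to 0.674) of the reads on DSF1 and MAN2 in Δtup1 at diauxic shift, against 0.3% (0.145 to 0.617) and 0.435% (0.211 to 0.894) in wild type. So the MAN2 share in wild type and in Δtup1 overlapped, with the sum 5.86 (SE 0.33) higher in Δtup1 on the log2 scale. For SOR2 the wild type shares were 33.3% (9.68 to 70) and 7.14% (1.27 to 31.5), from 6 and 14 reads on the pair, and HXT16 had 0 of 7 and 0 of 13 reads. HXT16 took 1.12% (0.693 to 1.82) and 1.07% (0.718 to 1.58) of the reads on HXT15 and HXT16 in Δtup1 at diauxic shift, and SOR2 took 11.3% (8.81 to 14.3) and 14.8% (11.9 to 18.3) of those on SOR1 and SOR2. How many of the reads on HXT16, HXT17, MAN2 and SOR2 came from their more abundant copies was not tested.

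The reads on the genes next to the pairs are described here and were not used to tell which copies were read. YNR071C, a putative aldose epimerase gene next to HXT17 with no 37-base stretch in common with the rest of the genome, had 1 read in all among the 4 libraries of the Δtup1 table at stationary phase, the only table used here that lists it. No value of AIF1, the gene beyond MAN2, was used here. DLD3 and YEL068C, which flank DSF1 and HXT13 and have no shared stretch either, had normalized counts of 9956 and 11644 and of 567 and 658 in wild type at diauxic shift. At the pairs on chromosomes IV and X, MPH3, an alpha-glucoside permease gene beyond SOR1, had 61 and 60 wild type reads at diauxic shift, while MPH2 beyond SOR2 had 0 and 4. MPH2 shares 98% of its stretches with other sequence and MPH3 98.3%. The presence of the loci in the strain used was not tested.

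The neighbours did not follow the members as a block. DLD3, a D-lactate dehydrogenase gene, had a log2 fold change of -0.85 (SE 0.33, limma adjusted p = 0.0723) in Δtup1 at diauxic shift and 1.52 (SE 0.22, adjusted p = 0.0002) at stationary phase, while DSF1 beside it was at 5.86 and 5.59. YEL068C, on the far side of HXT13, was at 0.25 (SE 0.30) and -0.19 (SE 0.31) and was not called at either phase. THI13 and THI11, copies of a thiamine precursor synthesis gene next to HXT15 and HXT16, were called higher at diauxic shift, at 1.45 (SE 0.32, adjusted p = 0.00238) and 0.90 (SE 0.31, adjusted p = 0.0426). At stationary phase THI13 was called lower at -0.73 (SE 0.28, adjusted p = 0.049) and THI11 was at -0.64 (SE 0.31, adjusted p = 0.107). MPH3 was called higher at diauxic shift, at 1.65 (SE 0.39, adjusted p = 0.00467), and was at -0.06 at stationary phase. Among up to 5 annotated genes on each side of the pairs, 34 in all, 9 of 26 tested were higher and 2 lower in Δtup1 at diauxic shift, and 9 of 25 higher and 7 lower at stationary phase. These are shares of 34.6% higher and 7.69% lower at diauxic shift, and 36% and 28% at stationary phase. Of all genes 13.8% were called higher and 6.27% lower at diauxic shift, and 25.7% and 24.0% at stationary phase.

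**Figure D3:**
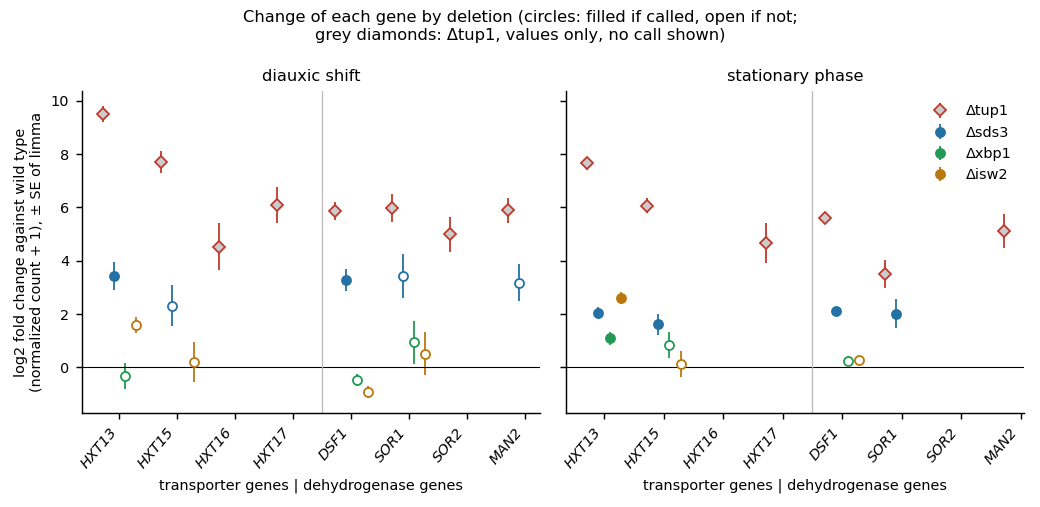
Log2 fold change of each gene tested against wild type, with bars for the standard error of limma, at diauxic shift (left) and stationary phase (right), by deletion. Filled circles passed the call and open circles did not, Δtup1 is drawn as grey diamonds with no call, and genes with too few reads have no point. In Δtup1 the values run from 4.52 for HXT16 to 9.50 for HXT13 at diauxic shift and from 3.51 for SOR1 to 7.66 for HXT13 at stationary phase.

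In Δsds3 DSF1 and HXT13 were called higher than wild type at both phases. At diauxic shift DSF1 had 2128 and 1732 in wild type and 18815 and 18176 in Δsds3, a log2 fold change of 3.27 (SE 0.42, limma adjusted p = 0.0198). HXT13 had 94.1 and 110 in wild type and 859 and 1429 in Δsds3, a log2 fold change of 3.43 (SE 0.54, adjusted p = 0.0259). These 2 genes were called higher, of 5 tested, where 1.94% of the 6340 genes tested were called higher and 0.852% lower. SOR1 had 3.65 and 14 against 132 and 60.3, a log2 fold change of 3.43 (SE 0.84, adjusted p = 0.066). MAN2 had 6.39 and 7.56 against 61.3 and 81.9, a log2 fold change of 3.18 (SE 0.69, adjusted p = 0.0529), and HXT15 had 6.39 and 14 against 76.2 and 34.9, a log2 fold change of 2.32 (SE 0.78, adjusted p = 0.133). The groups did not overlap for any of these 3 genes either. Both Δsds3 libraries lay above both wild type libraries for 28.1% of the genes tested. This also held for SOR2 and HXT17, which did not pass the filter, HXT17 with 0 and 1 reads against 5 and 1. HXT15, MAN2 and SOR1 met the filter on low counts only through Δsds3, so nothing is read from the number of genes set apart. SOR2 went from 2 and 1 reads in wild type to 19 and 8 in Δsds3, a ratio of 8.65 with a counting interval of 2.66 to 44.6.

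The number of calls at diauxic shift depended on single libraries, in a comparison where the Δsds3 libraries stood apart. Without wild type library A none of the 5 genes was called and without wild type library B 1 was. Without Δsds3 library A the count was 4 and without library B it was 5. DESeq2 called 4 of them, edgeR called 3 and limma with the replicate number as a block called 5. With single libraries left out the log2 fold change stayed between 3.06 and 3.8 for HXT13 and between 3.12 and 3.42 for DSF1.

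At stationary phase, where the Δsds3 libraries were alike, the estimated rises were smaller and the calls firmer. The limma test of the difference between phases called 0 of the 4 genes tested. DSF1 had 616 and 597 in wild type and 2862 and 2451 in Δsds3, a log2 fold change of 2.13 (SE 0.15, limma adjusted p = 2.2e-06). HXT13 had 140 and 96.7 against 509 and 447, a log2 fold change of 2.03 (SE 0.22, adjusted p = 2.9e-05). HXT15 had 14 and 19.3 against 55 and 50.6, a log2 fold change of 1.62 (SE 0.40, adjusted p = 0.00471), and SOR1 had 5.3 and 9.67 against 39.1 and 26.6, a log2 fold change of 2.02 (SE 0.55, adjusted p = 0.00818). The groups did not overlap for these 4 genes, and both Δsds3 libraries lay above both wild type libraries for 41.3% of all genes tested. DSF1, HXT13 and HXT15, which met the filter on low counts in wild type as well, were called higher, and so was SOR1. Of the 6211 genes tested 27.6% were called higher and 25.4% lower, and nothing is read from a count of the members. SOR1 met the filter there only through Δsds3, and without Δsds3 library A its call was lost, at 1.75. HXT16 was taken as 0 reads in the 4 libraries, and HXT17, MAN2 and SOR2 had at most 15 reads in a library.

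The estimated gap between Δtup1 and Δsds3 was wider for the transporters than for the dehydrogenases. It was taken from a fit of all 10 libraries of a phase, in which 16.2% of all genes were called higher in Δtup1 and 13.1% lower at diauxic shift, and 29.3% and 29.8% at stationary phase. As the genes were chosen with their Δtup1 values known, and HXT16 and HXT17 met the filter through Δtup1 alone, the differences are values without a call. At diauxic shift the 4 transporters differed by 6.04 (SE 0.45) for HXT13, 5.37 (SE 0.60) for HXT15, 4.94 (SE 0.75) for HXT17 and 4.11 (SE 0.75) for HXT16 on the log2 scale. The 4 dehydrogenases differed by 2.70 (SE 0.62) for MAN2, 2.59 (SE 0.78) for SOR2, 2.56 (SE 0.27) for DSF1 and 2.54 (SE 0.62) for SOR1. In Δsds3 HXT16 had 1 and 0 reads and HXT17 had 5 and 1, so their differences depend on the 1 added to each count. The 4 transporter estimates lay above the 4 dehydrogenase estimates, but those of HXT16 and SOR2 met within their standard errors. At stationary phase HXT13 was at 5.61 (SE 0.19), HXT15 at 4.43 (SE 0.33) and HXT17 at 4.12 (SE 1.03), against 3.44 (SE 0.19) for DSF1, 3.38 (SE 1.04) for MAN2 and 1.5 (SE 0.57) for SOR1. The difference between the groups of genes was seen in these data and was not tested, and copies that share reads are not separate cases of it. With single libraries left out the dehydrogenases ranged from 1.99 to 3.1 at diauxic shift and the transporters from 3.73 to 6.41, and at stationary phase the ranges overlapped, from 0.87 to 4.34 and from 3.57 to 5.8.

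**Figure D4:**
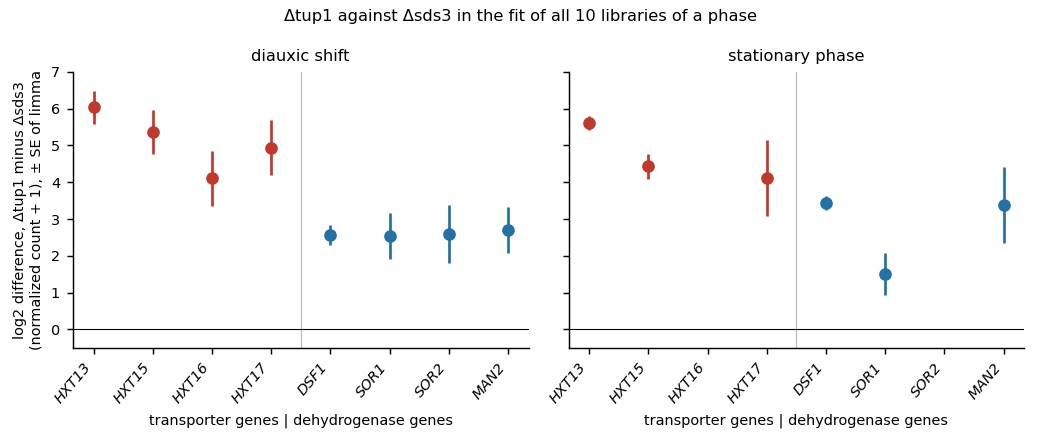
Log2 difference between Δtup1 and Δsds3 for each gene tested, with bars for the standard error of limma, at diauxic shift (left) and stationary phase (right). Transporters (red) lie between 4.11 and 6.04 at diauxic shift and dehydrogenases (blue) between 2.54 and 2.70.

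Reads of DSF1 and HXT13 within a library can be compared without any scaling between libraries, for this 1 pair of genes only. Wild type at diauxic shift had 22.6 and 15.7 DSF1 reads for each HXT13 read, and Δsds3 had 21.9 and 12.7, so the ranges overlapped. Δtup1 had 1.56 and 1.43. At stationary phase the ratio was 4.39 and 6.17 in wild type, 5.62 and 5.48 in Δsds3 and 1.28 and 1.18 in Δtup1. Both genes were higher in Δtup1 and in Δsds3, while their proportion overlapped with wild type in Δsds3 at both phases and lay outside the wild type libraries in Δtup1.

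**Figure D5:**
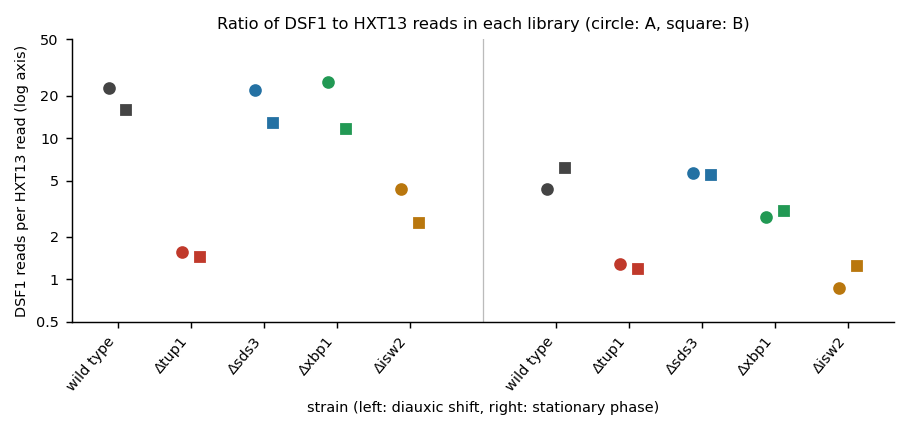
DSF1 reads per HXT13 read in each of the 20 libraries, on a log axis, with circles for library A and squares for library B. Wild type and Δsds3 overlap at both phases, and the Δtup1 libraries (1.56 and 1.43, then 1.28 and 1.18) and the Δisw2 libraries (4.36 and 2.52, then 0.862 and 1.24) lie below them, as do the Δxbp1 libraries at stationary phase (2.74 and 3.05) but not at diauxic shift (25.1 and 11.6).

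In Δisw2 HXT13 was called higher at stationary phase and DSF1 beside it was not, a difference between the genes that was not tested. At stationary phase HXT13 had 104 and 72.1 in wild type and 564 and 498 in Δisw2, a log2 fold change of 2.60 (SE 0.21, limma adjusted p = 0.00023) and a ratio of means of 6.04. DSF1 had 455 and 445 against 486 and 615, a log2 fold change of 0.28 (SE 0.16, adjusted p = 0.489). HXT15 had 10.4 and 14.4 against 14 and 13.3, a log2 fold change of 0.14 (SE 0.49, adjusted p = 0.936). HXT13 was thus the 1 gene called higher of 3 tested, where 1.21% of the 5953 genes tested were called higher and 0.706% lower, and leaving out any single library kept this count. There were 0.862 and 1.24 DSF1 reads for each HXT13 read, against 4.39 and 6.17 in wild type.

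At diauxic shift HXT13 had 86 and 104 in wild type and 246 and 330 in Δisw2, a log2 fold change of 1.58 (SE 0.30, limma adjusted p = 0.319), and the groups did not overlap. DSF1 went the other way, with 1946 and 1631 in wild type and 1071 and 831 in Δisw2, a log2 fold change of -0.92 (SE 0.23, adjusted p = 0.643). Neither passed the call, and 0 of 4 genes tested did, while limma called 0.0640% of all genes higher and 0.0320% lower. At an unadjusted p-value under 0.05 the count was 2, HXT13 and DSF1, and DESeq2, limma without wild type library B and limma with the replicate number as a block each called 1 higher. With the block DSF1 was called lower as well. SOR1 had 3.34 and 13.2 against 10.7 and 9.82, and HXT15 had 5.85 and 13.2 against 7.16 and 14.7, both with overlapping libraries. The HXT15 difference of 0.20 turned to -0.33 without wild type library A and to -0.27 without Δisw2 library B, and the SOR1 difference of 0.52 turned to -0.34 without wild type library A.

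In Δxbp1 HXT13 was called higher at stationary phase, and no gene of the set was called at diauxic shift. At diauxic shift HXT13 had 81.1 and 96.8 in wild type and 44.2 and 115 in Δxbp1, and DSF1 had 1834 and 1522 against 1111 and 1330. HXT13 overlapped with wild type, at a log2 fold change of -0.31 (SE 0.49) that became 0.37 without Δxbp1 library A, and DSF1 was lower in both Δxbp1 libraries with a log2 fold change of -0.46 (SE 0.22, limma adjusted p = 0.725). Of 3 genes tested 0 were called by limma, 0 also at an unadjusted p-value under 0.05, where 0.432% of all genes were called higher and 0.0320% lower. At stationary phase HXT13 had 103 and 71.1 against 176 and 192, a log2 fold change of 1.09 (SE 0.25, adjusted p = 0.00594), the only call of 3 genes tested, where 12.3% of the 5968 genes tested were called higher and 11.5% lower. DSF1 had 452 and 439 against 483 and 584 (log2 fold change 0.25, SE 0.17, adjusted p = 0.274), and HXT15 had 10.3 and 14.2 against 28.9 and 17.4 (0.84, SE 0.50, adjusted p = 0.226). The libraries of these 3 genes did not overlap with wild type, as for 32.8% of all genes in that direction.

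Set side by side at stationary phase, against the same wild type libraries, HXT13 stood at 7.66 in Δtup1, 2.60 in Δisw2, 2.03 in Δsds3 and 1.09 in Δxbp1 on the log2 scale, and DSF1 at 5.59, 0.28, 2.13 and 0.25. In the fit of all 10 libraries of a phase the genes differed between Δtup1 and Δxbp1 by 4.49 to 9.80 at diauxic shift, where 6.89% of all genes were called higher in Δtup1 and 2.92% lower. Against Δisw2 they differed by 3.6 to 7.91, where 8.86% were called higher and 3.79% lower. At stationary phase the 6 genes that met the filter differed by 3.25 to 6.59 from Δxbp1 and by 3.77 to 5.95 from Δisw2, where 27.0% and 25.7% of all genes were called higher and 23.8% and 24.4% lower. HXT16 and HXT17 met the filter through Δtup1 alone, and these differences are again given without a call.

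The estimated change from wild type was smaller at stationary phase than at diauxic shift for each gene tested in Δtup1 and Δsds3, although only HXT13 in Δtup1 passed the test of this difference. HXT15, HXT17, MAN2 and SOR1 met the filter on low counts at diauxic shift only through Δtup1, and all but HXT15 also at stationary phase. In Δsds3 the same held for HXT15 and SOR1 at diauxic shift. Nothing is therefore read from the shared direction of the genes. The Δtup1 terms are built from differences known when the genes were chosen, so their adjusted p-values carry the limit given at the start. HXT13 levels in reads per kb, scaled by library, overlapped between phases in Δtup1 (1112 to 1185, then 1101 to 1364). In wild type they were higher at stationary phase (1.87 to 2.02, then 5.33 to 7.68), a difference that was not tested. In Δtup1 the difference between the phases was -1.84 (SE 0.36, limma interaction, adjusted p = 0.00994) for HXT13 on the log2 scale, and this was the 1 gene of 6 tested that was called, where 5.84% of all genes were called lower and 3.85% higher. It was -1.64 (SE 0.53, adjusted p = 0.0639) for HXT15, -2.47 (SE 0.84, adjusted p = 0.0774) for SOR1 and -0.27 (SE 0.37, adjusted p = 0.672) for DSF1. MAN2, at -0.80, turned to 0.14 without wild type library B at stationary phase. Without wild type library A at stationary phase the count was 0, without wild type library B at diauxic shift it was 3 and without Δtup1 library A at stationary phase it was 2. In Δsds3 the interaction term was -1.41 (SE 0.51, adjusted p = 0.449) for HXT13 and -1.14 (SE 0.35, adjusted p = 0.414) for DSF1. Of 4 genes tested in Δsds3, 2 in Δxbp1 and 3 in Δisw2, 0 were called by limma, with 2 in each at an unadjusted p-value under 0.05, where limma called 0.0486% of all genes higher and 0.0324% lower in Δsds3, 0.353% and 0.369% in Δxbp1 and 0% in Δisw2. Without Δsds3 library A at diauxic shift 2 genes were called lower in the Δsds3 interaction, and without library B 1 was.

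The rest of the pathway was taken from lists of related genes, described by counts and medians. Over all genes 13.8% were called higher and 6.27% lower in Δtup1 at diauxic shift and 25.7% and 24.0% at stationary phase, and in Δsds3 27.6% and 25.4% at stationary phase, with medians between -0.02 and 0.00. Of the other 16 sugar carrier and sensor genes of the HXT family, Δtup1 had 9 called higher and 1 lower at diauxic shift, then 10 higher and 3 lower at stationary phase, with medians of 1.15 and 1.09. Of these HXT2, a high-affinity glucose transporter gene, had a log2 fold change of 6.12 (SE 0.36) at diauxic shift and 5.90 at stationary phase. HXT5, which is made when growth slows, was at -0.70 (SE 0.37) and -1.37. In Δsds3 the same list had 0 higher and 1 lower at diauxic shift and 6 higher and 5 lower at stationary phase, shares of 37.5% and 31.2% with a median of 0.25. In Δxbp1 the counts were 0 and 0, then 4 higher and 1 lower, and in Δisw2 they were 0 at both phases.

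Hexose phosphorylation, the step after fructose, had 3 of 4 genes higher in Δtup1 at each phase, with medians of 1.64 and 1.44. HXK1, the hexokinase gene induced without glucose, was at 2.46 (SE 0.35) and 2.04 (SE 0.22), EMI2, a glucokinase paralog gene, at 2.12 (SE 0.36) and 1.65 (SE 0.20), and the third was HXK2 at diauxic shift, at 1.17 (SE 0.32), and GLK1 at stationary phase, at 1.24 (SE 0.27). In Δsds3 at stationary phase HXK1 and GLK1 were lower, at -1.56 and -0.87, and HXK2 was higher, at 1.15. Of 14 other polyol and aldose enzyme genes, Δtup1 had 3 higher and 1 lower at diauxic shift, then 6 higher and 4 lower at stationary phase, shares of 42.9% and 28.6%, with medians of 0.12 and 0.39. The highest were STL1, a glycerol transporter gene, at 4.32 (SE 0.32) at diauxic shift, and BDH1, a butanediol dehydrogenase gene, at 3.10 (SE 0.36) and 3.27 (SE 0.26). In Δsds3 at stationary phase this list had 1 higher and 7 lower, with a median of -0.55, among them XYL2, a gene for a xylitol dehydrogenase related to SOR1, at -0.92 (SE 0.14).

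Among 12 genes of sugar repressors and partners of Tup1, 8 rose in Δtup1 at diauxic shift, 11 did so at stationary phase, and 0 were lower in limma at either, with medians of 1.63 and 2.73. NRG1 was at 1.43 (SE 0.31), NRG2 at 3.69 (SE 0.39) and MIG2 at 2.17 (SE 0.42) at diauxic shift, while RGT1 at 0.65 (SE 0.32, limma adjusted p = 0.15) and MIG1 at 0.18 (SE 0.33) were not called. Of the alpha-glucoside transporter genes near chromosome ends, 3 of 3 tested were higher at diauxic shift and 2 at stationary phase, with medians of 1.99 and 0.84, with MAL31 at 2.14 (SE 0.32) and MAL11 at 1.99 (SE 0.31) at diauxic shift. All lists were chosen with earlier results of these data known.

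The profiles most like the mean profile of the 8 genes were found by the Pearson correlation over the 20 libraries, after subtraction of the wild type mean of each phase, among 6138 genes. They were those of DIA3, a gene for invasive growth (r = 0.985), DAN1, a cell wall mannoprotein gene (0.977), YFL021C-A (0.975), PAU12, a seripauperin gene (0.971), and INA1 (0.970). The 6 members that passed the same filter had r from 0.923 for SOR1 to 0.990 for HXT15 with a mean profile that contains them. The 20 libraries share strains and phases, and the 4 Δtup1 libraries carry most of the variation. DAN1 had log2 fold changes of 10.68 and 7.45 in Δtup1 at the earlier and the later phase, near those of HXT13, and DIA3 had 2.56 and 2.21.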

How the data were processed

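The 8 deposited tables each held 2 wild type and 2 deletion libraries of 1 phase. The authors aligned the paired reads to sacCer3 with bowtie2 and divided read counts by DESeq2 size factors before they deposited the values, here called normalized counts (a signal per gene that is not a raw count). The program and annotation behind the counts, their use of strand and the treatment of reads with several positions are not given in the sources used here. Dividing by the step of each column gave whole reads for 100% of values, within 0.01 of a read or, for large counts, within 1e-06 of the count, and the wild type reads were the same in the 4 tables of a phase. HXT16 was taken as 0 reads where a table did not list it, since the lowest summed reads of a listed gene were 1 in each table.

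Within a table, limma 3.58.1 (R 4.3.3) set the deletion against wild type with a mean-variance trend on log2(normalized count + 1), over genes kept by filterByExpr of edgeR 4.0.16, with Benjamini-Hochberg adjustment over all genes tested, two-sided. The interaction between phases used 8 libraries, and deletions were compared in a fit of 10 libraries on a joint size factor. Alternatives were TMM normalization, pseudocounts of 5 and 0.5, no filter, edgeR quasi-likelihood and DESeq2 1.42.0 on the recovered reads, the replicate number as a block, leaving out each library, all libraries of a phase in 1 fit, and summed copies. In simulated data of the size of the Δtup1 comparisons and of Δsds3 at diauxic shift, the limma step was run on known changes. Those changes were set only in genes with more wild type reads than most members have. The outcome is not used here. Named genes were the 8 members, the deleted genes, the first gene on either side of each pair, and the 5 most alike profiles, and genes named from the lists were chosen after their values were seen. Members and lists were chosen with earlier results of these data known.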

Additional observations from a re-analysis of the deposited data

Results flagged for a closer look

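HXT13 levels in reads per kb, scaled by library, overlapped between phases in Δtup1 (1112 to 1185 at diauxic shift, 1101 to 1364 at stationary phase). They did not in wild type (1.87 to 2.02, then 5.33 to 7.68), and neither was tested. The change from wild type in Δtup1 was smaller at stationary phase by the interaction term of limma (-1.84 on the log2 scale, adjusted p = 0.00994). This term is built from Δtup1 differences known when the genes were chosen, so its p-value carries the limit given at the start. Leaving out single libraries gave -2.09 to -1.6, and without wild type library A at stationary phase the term no longer passed the threshold.

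DSF1 stood below wild type in both Δxbp1 libraries at diauxic shift and above it in both at stationary phase, an interaction of 0.71 that limma did not call (adjusted p = 0.236). In Δisw2 the libraries lay on the same sides, with an interaction of 1.20 that was not called either (adjusted p = 0.998). Their causes were not tested.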

How the results depend on the processing

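Of 888 values of single genes under the alternatives, 828 kept their direction and their side of the threshold, 23 lost a call, 28 gained it and 9 changed sign, with the direction of the 168 values of Δtup1 against wild type among them fixed by the choice of genes. The sign changes came with leaving out a library: HXT15 in Δisw2 ranged from -0.33 to 0.73 at diauxic shift (-0.27 without Δisw2 library B), from -0.08 to 0.36 at stationary phase and from -0.58 to 0.47 in the interaction (also 0.42 and 0.17), SOR1 in Δisw2 at diauxic shift from -0.34 to 1.38, MAN2 in the Δtup1 interaction from -1.73 to 0.14, and HXT13 in Δxbp1 at diauxic shift from -0.99 to 0.37. The count of genes higher in Δsds3 at diauxic shift ranged from 0 to 5 with a library left out and was 4 by DESeq2, 5 with all libraries of the phase and 5 with the replicate block, against 2. In Δisw2 at diauxic shift it ranged from 0 to 1 and was 1 by DESeq2, and with the replicate block 1 gene was higher and 1 lower. The interaction count ranged from 0 to 3 in Δtup1, with 2 at a pseudocount of 5 and 2 with the replicate block, and from 0 to 2 in Δsds3. With copies summed, the log2 fold change in Δtup1 at diauxic shift was 9.50 for HXT13 with HXT17 and 7.73 for HXT15 with HXT16. It was 5.86 for DSF1 with MAN2 and 5.90 for SOR1 with SOR2, and these values carry no call. The block pairs columns with the same ending, and no source used here says that they share a culture, batch or replicate number. Deviations of such libraries correlated at -0.02 for Δtup1 at diauxic shift, 0.58 for Δisw2 there and 0.17 to 0.47 in the other comparisons. Where an arm was left with 1 library, it was assumed to vary like the others. Depth limits HXT16, HXT17 and SOR2, and stationary phase B libraries most. The causes of these shifts were not tested.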
